A study of Mus musculus with 9 samples.

Results

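The lipid handling genes of alveolar macrophages are a group of 31 genes for lipid uptake, lysosomal lipid transfer, droplet storage, lipolysis and fatty acid oxidation, chosen by gene symbol and not by any measured value, out of 27179 genes counted. All 31 were found by their Entrez identifier, and 30 of them passed the filter on low counts. The nuclear receptor gene Ppara did not pass.

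RNA was sequenced from alveolar macrophages sorted from the lungs of C57BL/6 mice at the age of 1 week. The knockout group (Suz12 cKO) held 5 libraries from mice with a conditional knockout of Suz12, and the wild type group held 4. Suz12 encodes a core subunit of Polycomb repressive complex 2, a complex that silences genes by methylating histone H3. The series text calls the libraries of a group biological replicates. The sources used here do not give the Cre driver, the deleted exons, the sorting gate, the sex of the mice or whether a library came from 1 mouse or a pool. Comparing them shows how each lipid gene differed in macrophages that lost Suz12.

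Alveolar macrophages take up and break down surfactant, the lipid film that lines the airspaces. Fatty acids freed from surfactant or lipoproteins are bound by small carrier proteins in the cytosol, and are then either stored as esters in lipid droplets or passed into mitochondria for beta-oxidation. Cholesteryl esters and triglycerides that reach the lysosome are split there by a lipase, and a pair of transfer proteins passes the freed cholesterol out. The peroxisome proliferator-activated receptors (PPARs), which pair with retinoid X receptors, sense fatty acids and switch on many of these genes.

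Library totals ran from 18584016 to 45606001 assigned counts in knockout and from 13814799 to 25284693 in wild type. Suz12 itself stood between 11.9 and 21.8 counts-per-million (CPM) in the knockout libraries and between 51.7 and 76.6 CPM in the wild type libraries (log2 fold change -2.06, SE 0.18, adjusted p = 1.7e-05, edgeR quasi-likelihood test). All 19 markers listed for alveolar macrophages passed the filter. Of these 2 were called higher and 7 lower, Fabp1 among them, where 8.97% and 11.0% of all tested genes were. The defining surface gene Siglecf stood at 372 to 502 CPM in knockout and 411 to 493 CPM in wild type. Car4 was lower (317 to 804 CPM in knockout, 1067 to 1365 CPM in wild type), and the groups also did not overlap for Ctsk and Cd9, both lower. Marco was higher (771 to 885 CPM in knockout, 544 to 606 CPM in wild type). The 15 interstitial macrophage markers summed to 361 to 1889 CPM in knockout and 72.9 to 129 CPM in wild type. Most of that sum was Apoe, which was called higher, while C1qa reached at most 5.04 CPM in any library. Knockout library 3 stood apart from the other 4 knockout libraries. It had the highest sum of these markers (361 to 622 CPM in the other 4) and was the highest knockout library for 16 of the 30 tested lipid genes and the lowest for 9. Over all tested genes it was the highest for 29.9% and the lowest for 30.1%. Adipoq and Lep, which define adipocytes, had no count in any library. Fold changes also followed gene length. Among the shortest 10% of tested genes, of 62 to 970 bases, 39.3% were called lower and the log2 fold changes had a median of -0.42. Among the longest 10%, of 6045 to 83437 bases, 2.57% were called lower and the median was 0.14. A second fit therefore took out the trend with length in each library, which brought both medians to 0.02.

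With an adjusted p under 0.05 taken as a call (edgeR), 6 of the 30 tested lipid genes rose and 3 fell. The background over all 12840 tested genes was 19.9% called, 8.97% as higher and 11.0% as lower. The genes that rose were Lpl, Dgat2, Mgll, Acadvl, Hadha and Pdk4, and those that fell were Fabp1, Fabp5 and Soat1. The groups did not overlap for 6 genes that stood higher in knockout and 3 that stood lower, where 10.9% and 9.87% of all tested genes did so. The median log2 fold change of the 30 genes was 0.09, and that of all tested genes was 0.04. After the length correction 6 lipid genes were higher (Lpl, Dgat2, Mgll, Acadvl, Pdk4 and Plin2) and 4 lower (Soat1, Nceh1, Cpt1a and Rxra), where 15.9% of all tested genes were called, 7.35% as higher and 8.56% as lower. Without knockout library 3 the counts were 5 higher (Lpl, Dgat2, Mgll, Hadha and Pdk4) and 3 lower (Fabp1, Fabp4 and Nceh1). In that fit 19.8% of tested genes were called, 8.74% as higher and 11.1% as lower. Of 18 alternative fits, Lpl, Dgat2, Mgll and Pdk4 were called in 18, Fabp1 in 16, Soat1 in 10, Acadvl in 8, Hadha in 7 and Fabp5 in 7. In 1 more fit, a least-squares length curve added after seeing the data, Lpl, Dgat2, Pdk4 and Fabp1 were called but Mgll was not (log2 fold change 0.16, edgeR adjusted p = 0.221). The length correction counted among the 18 used a robust curve, a form also chosen after seeing that the least-squares curve shifts all genes. In bulk libraries, fewer cells that express a gene and less RNA of that gene per cell cannot be told apart.

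**Figure D1:**
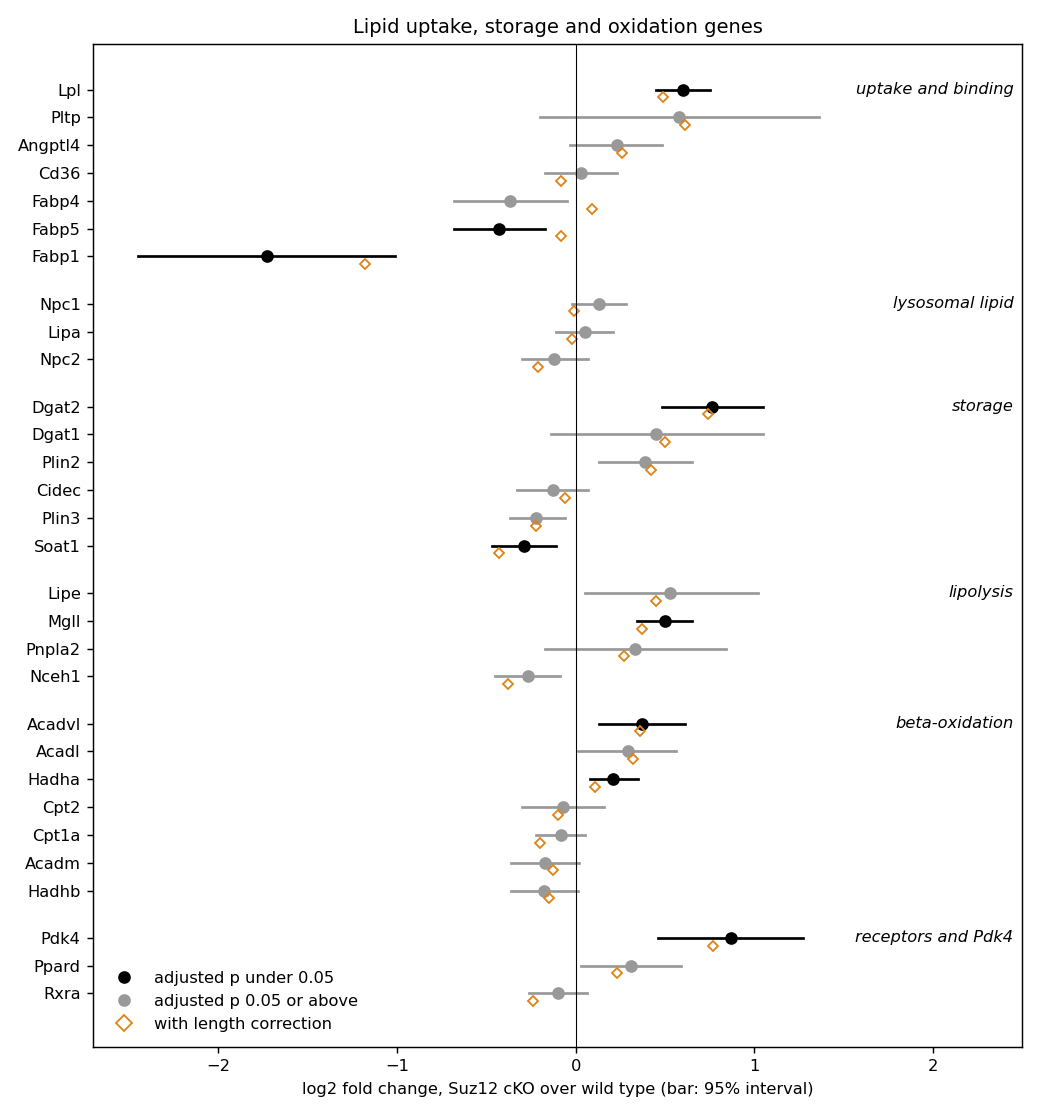
Log2 fold change (Suz12 cKO over wild type, x axis) of the 30 tested lipid genes, grouped by role down the page. Circles are the edgeR estimates with bars for an approximate 95% interval, black where the adjusted p was under 0.05. Open diamonds are the estimates after correction for gene length. Fabp1 stands farthest to the left at -1.73 and Pdk4 farthest to the right at 0.87.

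Levels were set against each other per kilobase of gene length (CPM per kilobase). Plin2, which encodes the main coat protein of macrophage lipid droplets, was the most abundant of the 31 genes, at 1089 ± 252 CPM per kilobase in knockout (SD, n = 5) and 831 ± 57.1 in wild type (SD, n = 4), above 99.5% of tested genes in wild type. In wild type the next were Fabp1 at 455 ± 68.7 and Lpl at 446 ± 46.0 CPM per kilobase, which did not differ beyond their spread, then Lipa at 349 ± 28.7 and Cd36 at 288 ± 25.5. In knockout the order was Plin2, Lpl at 676 ± 24.9, Lipa at 361 ± 26.7 and Cd36 at 293 ± 41.7, while Fabp1 stood at 137 ± 58.4 CPM per kilobase. Lipe was the lowest of the tested genes in both groups, at 2.25 ± 0.358 CPM per kilobase in knockout and 1.56 ± 0.389 in wild type.

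Among the genes of uptake and binding, the lipase Lpl rose while the cytosolic carriers Fabp1 and Fabp5 fell. Lpl (Entrez Gene 16956, chromosome 8, positions 68880555 to 68906932 of GRCm38) encodes lipoprotein lipase, which frees fatty acids from triglyceride in lipoproteins. It stood at 2735, 2838, 2640, 2630 and 2835 CPM in the knockout libraries and at 1725, 2083, 1685 and 1727 CPM in the wild type libraries. Every knockout library was above every wild type library, and the knockout libraries lay close together, with a coefficient of variation of 3.69%. Lpl rose by 0.60 on the log2 scale (SE 0.08, adjusted p = 2.07e-04 by edgeR), or 1.52-fold, and by 0.49 after correction for gene length. Angptl4, a secreted inhibitor of lipoprotein lipase, did not pass (log2 fold change 0.23, adjusted p = 0.251), with 3 knockout libraries above the wild type range, and its log2 fold change was 0.12 without knockout library 3.

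Fabp1 (Entrez Gene 14080, chromosome 6, positions 71199879 to 71205034 of GRCm38), the liver-type fatty acid binding protein, showed the largest fall of the 30 tested genes. It stood at 96.1, 85.5, 22.5, 75.1 and 58.6 CPM in the knockout libraries and at 270, 192, 225 and 208 CPM in the wild type libraries. All knockout libraries were below all wild type libraries, and knockout library 3 was the lowest. Fabp1 fell by 1.73 on the log2 scale (SE 0.37, adjusted p = 0.013 by edgeR). Leaving out knockout library 3 gave a log2 fold change of -1.50 with an adjusted p of 2.81e-05. Fabp1 is a short gene of 492 bases, and after correction for gene length the log2 fold change was -1.18 with an adjusted p of 0.0866, so the call ended there.

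Fabp5 (Entrez Gene 16592), the epidermal-type carrier, stood at 85.4, 88.2, 70.5, 83.7 and 96.2 CPM in knockout and at 110, 86.7, 145 and 114 CPM in wild type. The groups overlapped, because wild type library 2 lay among the knockout libraries. Its log2 fold change of -0.43 (SE 0.13, adjusted p = 0.0331 in the edgeR test) became -0.08 after correction for gene length (adjusted p = 0.71). It kept its call in 2 of the 9 fits that left out 1 library, those without knockout library 5 and without wild type library 2. RefSeq annotates a pseudogene of Fabp5, so its counts are uncertain. Fabp4, the adipocyte-type carrier, stood at 64.2, 73.0, 118, 64.1 and 89.8 CPM in knockout and at 112, 100, 115 and 94.7 CPM in wild type. Knockout library 3 was above the wild type range and the other 4 knockout libraries were below it. Its log2 fold change was -0.37 with all libraries (SE 0.16, adjusted p = 0.128) and -0.53 without knockout library 3 (adjusted p = 0.00614 by edgeR). After correction for gene length it was 0.09 (adjusted p = 0.767). All 3 carriers lay in the shortest 10% of tested genes.

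Cd36, the fatty acid transporter and scavenger receptor, stood at 1152 ± 164 CPM in knockout (SD, n = 5) and 1131 ± 100 CPM in wild type (SD, n = 4). The difference did not pass (log2 fold change 0.03, 95% interval -0.17 to 0.23, adjusted p = 0.887 by edgeR), and its sign turned to -0.08 after correction for gene length. Pltp, the phospholipid transfer protein, stood at 145, 103, 337, 111 and 94.5 CPM in knockout and at 103, 100, 95.3 and 124 CPM in wild type. Its log2 fold change of 0.58 (SE 0.40, adjusted p = 0.369) rested on knockout library 3, without which it was 0.11. The span of Pltp overlaps that of the lysosomal gene Ctsa, and without the strand setting reads of overlapping genes cannot be told apart.

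The promoter window of Fabp1 is shown because Fabp1 had the largest change of the group. Its window also held the only match to a PPAR-type motif among the 28 windows available, of 24 lipid genes. No window was available for Lpl, Fabp4, Fabp5, Npc1, Dgat1, Dgat2 and Angptl4, so these genes were not searched. The windows reach from 250 bases before to 50 after an annotated start site in RefSeq, build GRCm38.p6. The motif searched on both strands was AGGNCA followed after 1 free base by AGGNCA again, a direct repeat to which PPAR and retinoid X receptor pairs are known to bind, and 0.381% of all 32851 windows held it. In the Fabp1 window the match lies on the reverse strand at positions 184 to 196, and the start site is position 251. A TATAAA run, which 13.6% of all windows held, lies at positions 221 to 226. The window of Pdk4, the gene with the largest rise, is shown beside it and held neither, but held 1 CCAAT run on the reverse strand, as 37.4% of all windows did. Capitals mark these matches, and a match is a run of letters and no evidence of binding.
Fabp1, chr6:71199629-71199928, plus strand: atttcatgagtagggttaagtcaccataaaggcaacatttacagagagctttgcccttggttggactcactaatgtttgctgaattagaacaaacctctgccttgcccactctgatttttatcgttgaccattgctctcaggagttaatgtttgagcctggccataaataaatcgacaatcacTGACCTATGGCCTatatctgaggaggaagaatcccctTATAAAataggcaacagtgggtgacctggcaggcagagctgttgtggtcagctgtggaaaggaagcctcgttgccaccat
Pdk4, chr6:5496229-5496528, minus strand: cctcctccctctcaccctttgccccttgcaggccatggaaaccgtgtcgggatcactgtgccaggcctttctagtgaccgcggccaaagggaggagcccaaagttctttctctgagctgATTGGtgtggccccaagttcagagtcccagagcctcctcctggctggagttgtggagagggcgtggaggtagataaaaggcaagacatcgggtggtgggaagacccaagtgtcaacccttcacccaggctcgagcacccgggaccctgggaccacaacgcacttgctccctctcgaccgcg

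Of the 3 lysosomal genes none passed the edgeR test, and none had an unadjusted p under 0.05. Lipa, the acid lipase that splits cholesteryl esters and triglycerides in the lysosome, stood at 1072 ± 79.3 CPM in knockout and 1035 ± 85.2 CPM in wild type (log2 fold change 0.05, interval -0.11 to 0.21, adjusted p = 0.724 by edgeR). Npc2, the soluble protein that carries cholesterol to the lysosomal membrane, and Npc1, the membrane protein that receives it, had log2 fold changes of -0.12 (adjusted p = 0.446) and 0.13 (adjusted p = 0.287). The signs of Lipa and Npc1 turned after correction for gene length, to -0.02 and -0.01. The span of Npc1 overlaps that of Rmc1.

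In lipid storage, the triglyceride enzyme Dgat2 rose and the cholesterol esterifying enzyme Soat1 fell. Dgat2 (Entrez Gene 67800, chromosome 7, positions 99153663 to 99182713 of GRCm38) catalyses the last step of triglyceride synthesis. It stood at 101, 78.6, 113, 77.8 and 68.6 CPM in the knockout libraries and at 57.5, 52.7, 42.0 and 54.8 CPM in the wild type libraries. The groups did not overlap, and the log2 fold change was 0.76 (SE 0.15, adjusted p = 0.00243 by edgeR), 0.74 after correction for gene length and 0.66 without knockout library 3. Dgat1, which catalyses the same step but is unrelated in sequence, stood at 73.4, 56.2, 142, 52.5 and 56.1 CPM in knockout and at 67.7, 54.4, 43.5 and 56.4 CPM in wild type. Knockout library 3 was far above the rest, and the log2 fold change was 0.45 with it (SE 0.30, adjusted p = 0.351) and 0.11 without it.

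Soat1 (Entrez Gene 20652, chromosome 1, positions 156428108 to 156474328 of GRCm38) esterifies cholesterol for storage in droplets. It stood at 246, 251, 213, 283 and 281 CPM in the knockout libraries and at 298, 297, 330 and 324 CPM in the wild type libraries. All knockout libraries were lower than all wild type libraries. The log2 fold change was -0.29 (SE 0.09, adjusted p = 0.0368 by edgeR) and -0.43 after correction for gene length (adjusted p = 0.00734). Leaving out 1 library at a time gave adjusted p-values up to 0.104, the largest without wild type library 4. The 3 of these 9 fits that kept the call were those without knockout libraries 4 or 5 or wild type library 2.

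Plin2, Plin3 and Cidec, proteins of the droplet surface, did not pass after adjustment by edgeR, though Plin2 and Plin3 had unadjusted p-values of 0.0116 and 0.0148. Plin2 stood at 2259, 1727, 2796, 1819 and 1670 CPM in knockout and at 1698, 1478, 1480 and 1614 CPM in wild type. In all but knockout library 5 it was above the wild type range. Its change of 0.39 on the log2 scale (SE 0.13) had an adjusted p of 0.0558, and of 0.0302 after correction for gene length by edgeR. Plin3, a coat protein that moves between cytosol and droplet, lay below the wild type range in every knockout library, at 142 ± 5.34 CPM in knockout and 166 ± 13 CPM in wild type, but did not pass (log2 fold change -0.22, adjusted p = 0.0666). Cidec, a protein of droplet fusion, had a log2 fold change of -0.13 (adjusted p = 0.414).

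**Figure D2:**
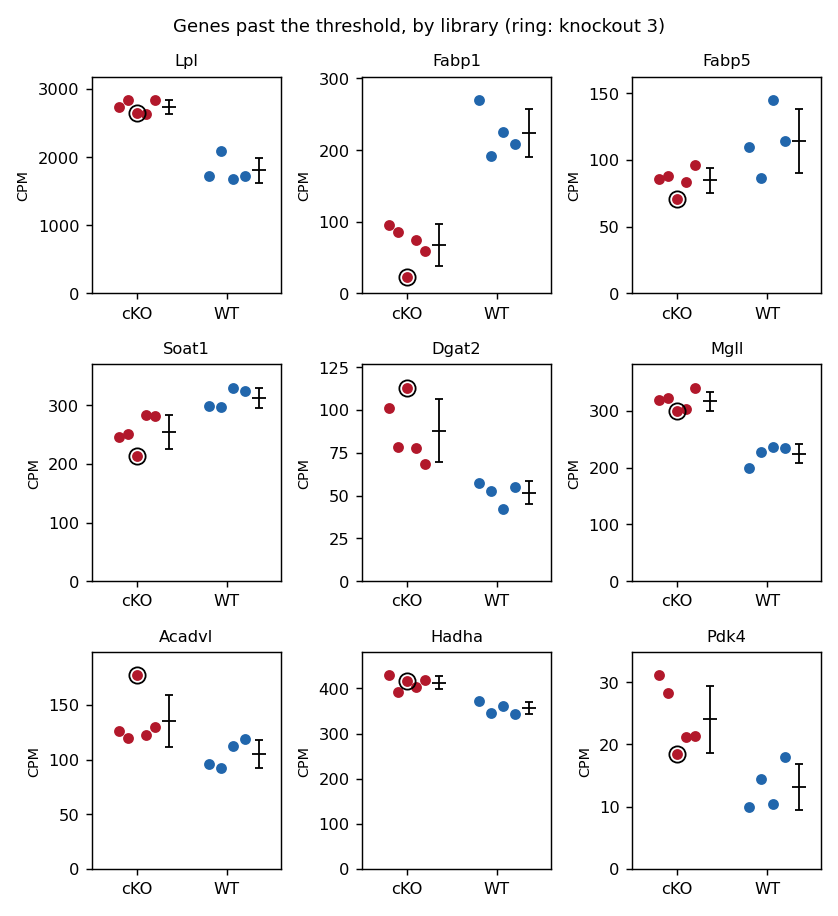
CPM (y axis, from 0) in each library for the 9 lipid genes past the threshold, with the 5 Suz12 cKO libraries left of the 4 wild type libraries and knockout library 3 ringed. Bars to the right of each group give the mean and SD. Fabp5 is the 1 gene of the 9 whose groups overlap.

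Lipolysis of droplets runs through Pnpla2 (adipose triglyceride lipase), then Lipe (hormone-sensitive lipase) and last Mgll (monoglyceride lipase), and of these Mgll rose. Mgll (Entrez Gene 23945, chromosome 6, positions 88724412 to 88828360 of GRCm38) stood at 320, 322, 299, 303 and 341 CPM in the knockout libraries and at 200, 228, 237 and 234 CPM in the wild type libraries. The lowest knockout library was well above the highest wild type library. Its rise was 0.50 on the log2 scale (SE 0.08, adjusted p = 7.26e-04 by edgeR), and 0.37 after correction for gene length, or 0.16 with the least-squares curve, which ended the call. Pnpla2 stood at 163, 132, 316, 131 and 138 CPM in knockout and at 132, 138, 153 and 137 CPM in wild type. Its log2 fold change was 0.33 (SE 0.26, adjusted p = 0.426) with all libraries and 0.02 without knockout library 3, in which it was highest. Lipe was scarce, at 7.36 ± 1.17 CPM in knockout and 5.08 ± 1.27 CPM in wild type (adjusted p = 0.154), and its span overlaps that of a noncoding transcript. Nceh1, which hydrolyses cholesteryl esters outside the lysosome, had 4 of 5 knockout libraries below the wild type range. Its log2 fold change was -0.27 (SE 0.09, adjusted p = 0.0553 by edgeR), and -0.38 after correction for gene length (adjusted p = 0.00794).

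In mitochondrial beta-oxidation the acyl-CoA dehydrogenase Acadvl and the trifunctional protein subunit Hadha rose by small margins, and the other 5 genes did not pass. Acadvl (Entrez Gene 11370), which starts the oxidation of very long chains, stood at 177 CPM in knockout library 3, at 120 to 130 CPM in the other 4 knockout libraries, and at 96.2, 92.0, 112 and 119 CPM in wild type. The groups did not overlap, though knockout library 2 and wild type library 4 lay next to each other. The log2 fold change was 0.37 (SE 0.12, edgeR adjusted p = 0.0495), and 0.26 without knockout library 3 (adjusted p = 0.0623). Of the 9 fits that left out 1 library only that without wild type library 4 kept the call, and adjusted p-values reached 0.118 without wild type library 1. Acadl and Acadm, which take long and medium chains, had log2 fold changes of 0.29 (adjusted p = 0.179) and -0.17 (adjusted p = 0.258). Acadl was at 0.14 without knockout library 3, and Acadm at -0.05 without wild type library 4. Cpt1a and Cpt2, the carnitine palmitoyltransferases that pass fatty acids across the mitochondrial membranes, had log2 fold changes of -0.08 (interval -0.22 to 0.05) and -0.07 (interval -0.30 to 0.16). The adjusted p of Cpt1a was 0.443, and after correction for gene length 0.0352 with a log2 fold change of -0.20.

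Hadha and Hadhb encode the alpha and beta subunits of the mitochondrial trifunctional protein, which carries out the last steps of long-chain oxidation. Hadha (Entrez Gene 97212) stood at 429, 393, 417, 404 and 419 CPM in knockout and at 373, 346, 360 and 344 CPM in wild type. Here the groups stood apart, though by little (log2 fold change 0.21, SE 0.07, edgeR adjusted p = 0.0429). Its adjusted p was 0.297 after correction for gene length, and the call held in 3 of 9 fits with 1 library left out, those without knockout library 3 and without wild type libraries 1 or 3. Hadhb (Entrez Gene 231086) stood at 74.7, 68.2, 90.3, 80.7 and 74.1 CPM in knockout and at 82.1, 96.0, 86.2 and 86.4 CPM in wild type. In 4 of 5 knockout libraries it was below the wild type range, and its log2 fold change was -0.18 (SE 0.09, adjusted p = 0.221). RefSeq annotates a pseudogene of Hadhb too, and a microRNA gene lies within the span of Hadhb as of Acadvl. These genes lie head to head on chromosome 5, with annotated start sites 273 bases apart at 30154980 and 30155253 of GRCm38, so that their promoter windows share 228 bases. The windows are shown to let the shared stretch be seen. Capitals mark GGGCGG on either strand, a GC box, which 35.7% of all windows held.
Hadha, chr5:30154931-30155230, minus strand: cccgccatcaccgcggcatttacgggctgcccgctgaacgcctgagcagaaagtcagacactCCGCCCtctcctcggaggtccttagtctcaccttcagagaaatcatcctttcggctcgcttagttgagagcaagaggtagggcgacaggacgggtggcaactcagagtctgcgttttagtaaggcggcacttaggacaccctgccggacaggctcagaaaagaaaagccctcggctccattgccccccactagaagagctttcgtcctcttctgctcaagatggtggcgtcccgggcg
Hadhb, chr5:30155003-30155302, plus strand: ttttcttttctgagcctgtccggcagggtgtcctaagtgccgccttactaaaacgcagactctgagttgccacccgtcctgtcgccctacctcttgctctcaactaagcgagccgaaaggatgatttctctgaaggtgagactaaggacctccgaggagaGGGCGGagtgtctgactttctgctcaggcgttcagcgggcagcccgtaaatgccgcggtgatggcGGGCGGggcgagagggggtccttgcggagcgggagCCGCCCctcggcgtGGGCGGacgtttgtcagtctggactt

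**Figure D3:**
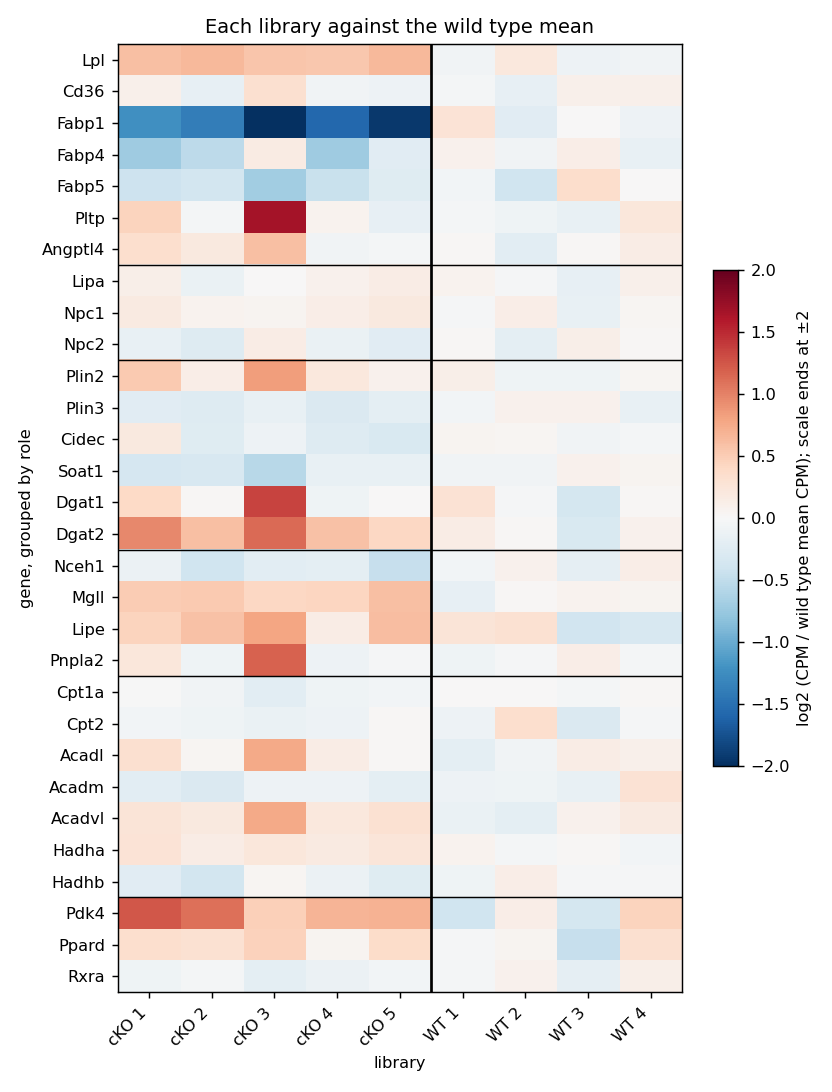
Log2 of each library's CPM over the wild type mean CPM (colour, scale ending at ±2) for the 30 tested lipid genes, in rows grouped by role, with Suz12 cKO libraries left of wild type libraries. The Lpl, Mgll, Dgat2 and Pdk4 rows are raised across all 5 knockout libraries and the Fabp1 row is lowered, whereas Pltp, Dgat1 and Pnpla2 are raised mainly in knockout library 3.

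Among the regulators, Pdk4 rose. Pdk4 (Entrez Gene 27273, chromosome 6, positions 5483351 to 5496278 of GRCm38) encodes a kinase that inhibits pyruvate dehydrogenase and so spares glucose when fat is burned. It stood at 31.1, 28.3, 18.4, 21.2 and 21.3 CPM in the knockout libraries and at 9.99, 14.4, 10.4 and 17.9 CPM in the wild type libraries. The groups did not overlap, but knockout library 3 was only just above wild type library 4. The log2 fold change was 0.87 (SE 0.21, adjusted p = 0.00909 by edgeR), 0.77 after correction for gene length and 0.95 without knockout library 3. The receptor gene Ppard did not pass (log2 fold change 0.31, adjusted p = 0.149), and its span overlaps that of a noncoding transcript. Rxra, its retinoid X receptor partner, stood at 250 ± 11.1 CPM in knockout and 267 ± 25.1 CPM in wild type (log2 fold change -0.10, adjusted p = 0.458, and -0.24 with an adjusted p of 0.0248 after correction for gene length). Ppara had 1 count in knockout and 0 in wild type. A total of 0 counts over the wild type libraries allows, at 3 counts, a level of up to 0.0347 CPM, and this limit covers counting error only.

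Ratios of partner genes within a library need no scaling between libraries, but the trend with gene length stays in them where partners differ in length. Hadha has 3835 bases and Hadhb 1949, and their log2 fold changes after correction for gene length were 0.11 and -0.15. For Plin2 (1887 bases) and Plin3 (2159 bases) they were 0.42 and -0.22. Without this correction, 7 ratios were compared by a two-sided exact permutation test that exchanged the library labels, whose smallest possible p is 0.00794. None passed after Benjamini-Hochberg adjustment over the 7. A ratio alone at the smallest possible p could not pass this adjustment, so not passing does not show that the ratios were alike. The log2 ratio of Hadha to Hadhb (counts per kilobase) averaged 1.44 ± 0.14 in knockout and 1.05 ± 0.14 in wild type, a difference of 0.39 (exact p = 0.0159, adjusted p = 0.0556). It was above the highest wild type value of 1.21 in all 5 knockout libraries, the lowest being 1.23 in knockout library 3. The log2 ratio of Plin2 to Plin3 averaged 4.02 ± 0.28 in knockout and 3.44 ± 0.20 in wild type, a difference of 0.58 (exact p = 0.0159, adjusted p = 0.0556), and here too the groups did not overlap. The ratio of Dgat1 to Dgat2 averaged 0.06 ± 0.36 in knockout and 0.45 ± 0.10 in wild type (exact p = 0.0714, adjusted p = 0.139). In 4 knockout libraries it lay between -0.21 and 0.07, below the wild type range of 0.40 to 0.60, and in knockout library 3 it was 0.68, above it. The ratios of Lpl to Angptl4, Npc1 to Npc2, Cpt1a to Cpt2 and Fabp4 to Fabp5 differed by 0.39, 0.25, -0.03 and 0.01 (knockout minus wild type), with adjusted exact p-values of 0.139, 0.189, 0.935 and 1.

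**Figure D4:**
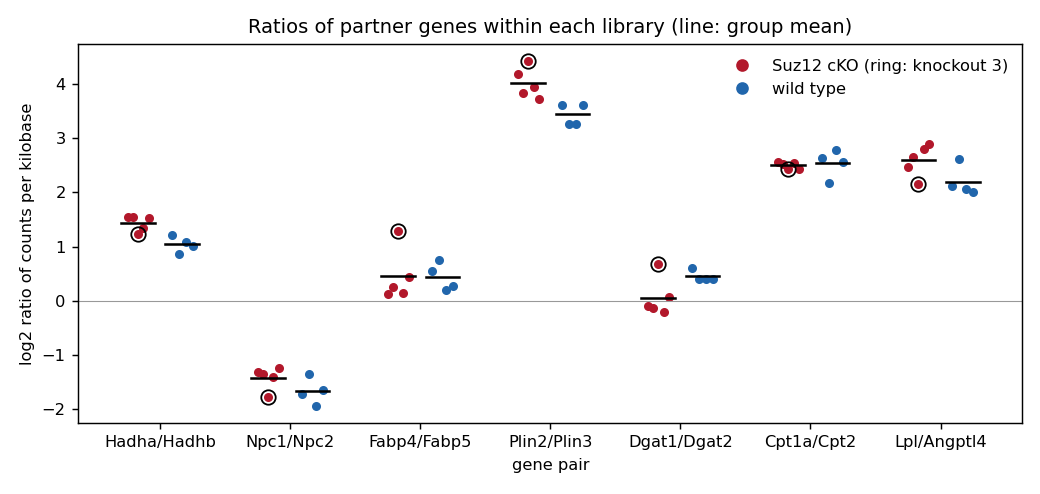
Log2 ratio of counts per kilobase (y axis) for 7 gene pairs in each library, Suz12 cKO left of wild type, with lines at the group means and knockout library 3 ringed. The groups do not overlap for Hadha over Hadhb and for Plin2 over Plin3, and knockout library 3 lies apart from the other knockout libraries for Fabp4 over Fabp5 and for Dgat1 over Dgat2.

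Other genes of the same pathways were taken from 6 lists that held none of the 31 genes. Of their 161 genes 127 were tested, of which 14 were higher and 13 lower by edgeR, against the same background of 8.97% and 11.0%. Their median log2 fold change was 0.11. After correction for gene length 9 were higher and 12 lower.

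The list of triglyceride synthesis and droplet genes had 3 higher and 2 lower of 23 tested. Hilpda, a droplet protein that inhibits adipose triglyceride lipase, stood at 75.7, 105, 199, 90.6 and 119 CPM in knockout and at 23.4, 25.4, 31.6 and 27.9 CPM in wild type. Even the lowest knockout library was more than any wild type library, and the log2 fold change was 2.13 (SE 0.26, edgeR adjusted p = 3.9e-04), and 1.86 without knockout library 3. Agpat3, an acyltransferase of glycerolipid synthesis, rose by 0.60 on the log2 scale (adjusted p = 0.00204 by edgeR). Abhd5, the coactivator of adipose triglyceride lipase, fell to 235 ± 34.1 CPM in knockout, against 294 ± 21.1 CPM in wild type (log2 fold change -0.32, adjusted p = 0.0404 by edgeR, and up to 0.131 with 1 library left out). Pnpla6, a lysophospholipase, fell by 0.55 on the log2 scale (adjusted p = 0.00705).

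In fatty acid uptake, binding and activation, 2 were higher and 2 lower of 16 tested. Acsl3, an acyl-CoA synthetase of the endoplasmic reticulum and droplets, stood at 13.1 ± 2.39 CPM in knockout and 4.18 ± 0.658 CPM in wild type (log2 fold change 1.64, SE 0.22, edgeR adjusted p = 2.07e-04). Acsl1, another acyl-CoA synthetase, rose by 0.52 (adjusted p = 0.0276 by edgeR), and by 0.35 without knockout library 3. Its call ended after correction for gene length (log2 fold change 0.41, adjusted p = 0.105) and in fits with 1 library left out (adjusted p up to 0.0834). Dbi, the acyl-CoA binding protein, fell to 178 ± 35.0 CPM in knockout, against 307 ± 55.3 CPM in wild type (log2 fold change -0.79, adjusted p = 0.00159 by edgeR). At 745 bases it is another short gene, and its log2 fold change was -0.37 after correction for gene length (adjusted p = 0.021). Lrp1, a lipoprotein receptor, fell by 0.30 on the log2 scale (adjusted p = 0.0169, and up to 0.0718 with 1 library left out).

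**Figure D5:**
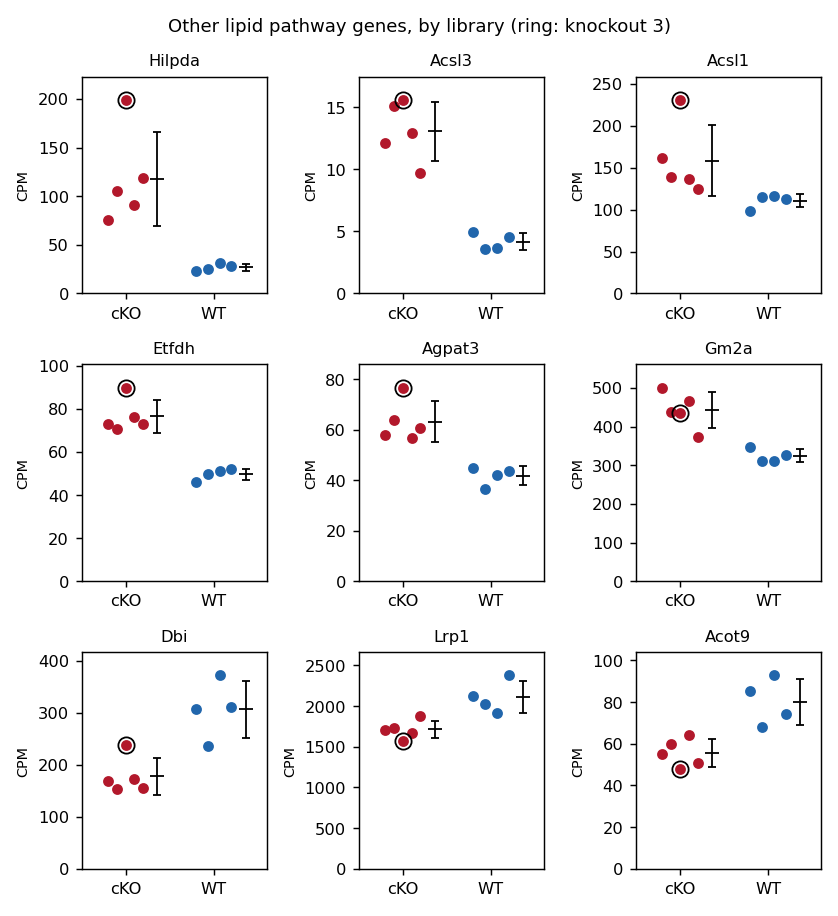
CPM (y axis, from 0) in each library for 9 further lipid pathway genes, Suz12 cKO left of wild type, with the mean and SD beside each group and knockout library 3 ringed. Hilpda, Acsl3, Acsl1, Etfdh, Agpat3 and Gm2a are higher in all knockout libraries than in any wild type library.

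In the carnitine shuttle and mitochondrial beta-oxidation list, 3 were higher and 6 lower of 24 tested, and 3 higher and 2 lower after correction for gene length. Etfdh, which passes electrons from fatty acid oxidation to ubiquinone, stood at 76.6 ± 7.70 CPM in knockout and 49.7 ± 2.59 CPM in wild type (log2 fold change 0.62, SE 0.10, edgeR adjusted p = 5.16e-04). The acyl-CoA thioesterases Acot9 and Acot13 fell by 0.52 and 0.42 (adjusted p = 0.00569 and 0.0140), and the enoyl-CoA hydratase Echs1 by 0.42 (adjusted p = 0.0211). After correction for gene length Acot13, of 686 bases, had a log2 fold change of 0.01 and Echs1 an adjusted p of 0.0684. Among 20 peroxisomal genes 2 were higher and 2 lower. The thiolase gene Acaa1b had an adjusted p of 0.0389 by edgeR (log2 fold change 0.64), but it has a near-identical neighbour, Acaa1a, so its counts are uncertain, and its adjusted p reached 0.0848 with 1 library left out. Ech1 and Acot8 fell with adjusted p-values of 0.0463 and 0.0469, which were up to 0.141 and 0.145 with 1 library left out, and 0.358 and 0.239 after correction for gene length.

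Of 23 genes of lysosomal lipid degradation 2 were higher and 1 lower. Gm2a, the activator protein for ganglioside breakdown, stood at 443 ± 47.0 CPM in knockout and 324 ± 17 CPM in wild type (log2 fold change 0.45, adjusted p = 0.00291 by edgeR). Psap, the precursor of the saposins, rose by 0.25 on the log2 scale (adjusted p = 0.0464). Of 21 PPAR partners, coregulators and targets 2 were higher. These were Pdk1, a second pyruvate dehydrogenase kinase, at a log2 fold change of 0.56 (adjusted p = 0.0221 by edgeR, and 0.40 on the log2 scale without knockout library 3), and the lysosomal transcription factor Tfe3 at 0.30 (adjusted p = 0.0312). The adjusted p-values of Psap, Pdk1 and Tfe3 reached 0.107, 0.0741 and 0.0777 with 1 library left out, and were 0.113, 0.147 and 0.102 after correction for gene length, so that each call ended.

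Markers of other cell types were read beside these changes. The interstitial macrophage sum given above moved with genotype, and 2 of its 11 tested markers were called higher and none lower. The 11 monocyte markers summed to 2577 to 4696 CPM in knockout and 1915 to 3069 CPM in wild type, with 2 called higher and none lower. Most of that sum was Fn1, at 1716 to 3692 CPM in knockout and 1656 to 2578 CPM in wild type, followed by Nr4a1, at 565 to 769 CPM in knockout and 69.1 to 274 CPM in wild type. Ly6c2, which defines classical monocytes, reached at most 1.98 CPM in any library, and Plac8 stood at 0.427 to 7.56 CPM in knockout and 5.97 to 15.7 CPM in wild type. The 12 endothelial markers summed to 6.42 to 9.80 CPM in knockout and 1.35 to 5.61 CPM in wild type, with none of 5 tested called. The 10 adipocyte markers summed to 18.0 to 77.2 CPM in knockout and 7.87 to 12.9 CPM in wild type, nearly all of it the droplet coat gene Plin1, which was highest in knockout library 3 at 76.3 CPM, against 17 to 27.4 CPM in the other knockout libraries. Among other lists, 1 of 8 tested neutrophil markers was higher (sums of 77.4 to 203 CPM in knockout and 73.6 to 98.6 CPM in wild type) and 2 of 11 alveolar epithelial markers were lower (1713 to 2051 CPM in knockout and 1969 to 2517 CPM in wild type). Most of the epithelial sum was the lysozyme gene Lyz1, at 1299 to 1605 CPM in knockout and 1636 to 2102 CPM in wild type, while Sftpc, which defines type II cells, reached at most 10.8 CPM. No fibroblast, lymphocyte or erythroid marker was called, with sums of 271 to 369, 6.65 to 27.0 and 23.9 to 311 CPM in knockout, and 243 to 317, 5.45 to 32.2 and 25.2 to 116 CPM in wild type. Nearly all of the fibroblast sum was Gyg, at 262 to 364 CPM in knockout and 236 to 312 CPM in wild type, and Col1a1 reached at most 2.59 CPM. The alveolar macrophage markers, which include Fabp1 and Fabp4, summed to 36190 to 62366 CPM in knockout and 47003 to 90171 CPM in wild type. The part of interstitial macrophages, monocytes or any other of these cell types in the lipid gene changes was not tested.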

How the data were processed

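Alveolar macrophage polyadenylated RNA was sequenced with TruSeq libraries and single-end reads, per the series text. The authors deposited raw counts per gene with gene lengths in bases, made with featureCounts on mm10, per the submitters' processing notes. Aligner, annotation release, strand setting and versions: not given in the sources used here. All 9 single-library tables equalled the joint table, which was used. RefSeq (GRCm38.p6) named 25275 of 27179 identifiers, and 1904 kept their identifier.

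Knockout was compared with wild type, without covariates, by the quasi-likelihood test of edgeR 4.0.16 in R 4.3.3 (robust fit, TMM scaling, filterByExpr), with Benjamini-Hochberg adjustment over 12840 genes at a threshold of 0.05. The SE was derived from the test statistic. CPM values were computed here from the TMM-scaled totals, and log2 CPM used a prior count of 2. The length correction entered as an offset the trend of log2 CPM deviations with log2 length in each library, a robust loess curve with a span of 0.5. The robust form was chosen after seeing that a least-squares curve shifts all genes. Libraries were not paired by replicate number in the reported fit. Without molecular identifiers, counting limits ignore amplification error.

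All 31 genes are accounted for. Each further list gave its up to 4 called genes with the smallest adjusted p, apart from some that are not reported here. The genes and lists were chosen with earlier results of these data known, so their counts are descriptions. Alternatives were DESeq2 1.42.0, voom (limma 3.58.1), other scalings and filters, length, equal depth, a replicate block and leaving out each library.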

Additional observations from a re-analysis of the deposited data

Results flagged for a closer look

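Within-group outliers were sought among 76 groups of 4 or 5 values (30 lipid genes and Suz12 on the log2 CPM scale, and 7 log2 ratios), and 6 groups had 1 library far from the others. Chance alone flags about 1 group in 20. In knockout, library 3 was the highest for Acadvl (7.46 log2 CPM), for Pnpla2 (8.31 log2 CPM) and for the log2 ratio of Fabp4 to Fabp5 (1.28). In wild type, library 2 was the highest for Lpl (11.02 log2 CPM), library 4 for Acadm (6.96 log2 CPM) and library 1 for the log2 ratio of Dgat1 to Dgat2 (0.60). Without wild type library 2 the log2 fold change of Lpl was 0.68.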

How the results depend on the processing

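Of the refits of single lipid genes, 481 kept direction and side of the threshold, 45 lost a call, 30 gained one and 14 turned sign. The robust length correction gave -0.08 for Cd36, 0.09 for Fabp4, -0.02 for Lipa and -0.01 for Npc1 (log2 fold changes), and left 9 further pathway genes higher. A least-squares length curve, added after seeing the data, moved the median of all genes to -0.20 and the higher share of calls to 13% (45% in the reported fit). Under it 3 lipid genes were higher and 11 lower, 3 further pathway genes were higher and 31 lower, and Cd36 stood at -0.28, Hadha at -0.09, Lipa at -0.21 and Npc1 at -0.22. Mgll lost its call there (0.16, edgeR adjusted p = 0.221). Relative to that median Lpl was 0.48, Mgll 0.35 and Dgat2 0.74. Scaling by library size only moved the median to 0.15 and the higher share to 65.9%, with 1 lipid gene lower, 28 further pathway genes higher and 4 lower, and with Cpt1a at 0.03, Cpt2 at 0.04 and Rxra at 0.02. Omitting the filter also moved the median to 0.15. DESeq2 called 5 lipid genes lower. With a replicate block 9 further pathway genes were higher and 7 lower, 749 of all genes were higher and 1103 lower, and Fabp1 had an edgeR adjusted p of 0.0982. The deviations of same-numbered libraries from their group means had correlations of 0.036, 0.032, -0.057 and 0.115, and those of unlike number -0.115 to 0.081. With so few pairs this check cannot decide whether the numbers pair the libraries. With 1 library left out, 4 to 6 lipid genes were higher and 1 to 3 lower (1 without knockout library 2 or wild type library 1), and 8 to 16 further pathway genes were higher (8 without knockout library 1) and 5 to 13 lower (5 without knockout library 5 or wild type libraries 1 or 4). These fits gave -0.05 to 0.07 for Cd36, -0.15 to 0.07 for Cpt2, and differences in log2 ratio of -0.15 to 0.05 for Cpt1a to Cpt2 and -0.20 to 0.11 for Fabp4 to Fabp5. The cause of these shifts was not tested.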

Other observations

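Of the further pathway genes, 34 did not pass the filter on low counts, and 10 of these had no count in any library. The genes named next were picked after their values were seen. Acacb, which makes malonyl-CoA, had 71 counts in the knockout libraries and 0 in the wild type libraries. Cidea, a droplet fusion protein, had 39 counts in knockout and 0 in wild type, and Fabp3, the heart-type fatty acid carrier, had 39 in knockout and 1 in wild type. The counts are sums over 5 knockout and 4 wild type libraries, and the knockout libraries were sequenced to a higher total. Most of the other genes below the filter with any count also had more counts in knockout. Acsm3 and Prkaa2 had 35 each and Mogat2 had 32, all with 0 in wild type. Only Cpt1b, Cyp4a10 and Creb3l3 had more counts in wild type (19, 13 and 25) than in knockout (15, 0 and 19). The share of all low-count genes with more counts in knockout is not given here.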
